A study of Mus musculus with 4 samples.

Results

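The cells described here are T cells of the lung that carried RNA of Ly49 receptors, and they were chosen by a gate on raw counts of unique molecular identifiers (UMIs, each standing for 1 captured RNA molecule). A cell was taken if it had at least 200 genes detected, at most 10% mitochondrial UMIs, at least 2 UMIs of Cd3d, Cd3e and Cd3g together, and at least 1 UMI of Klra1, Klra6 and Klra7 together. It had to hold 0 UMIs of Ncr1 (NK cells), Trdc (gamma-delta T cells), Foxp3 (regulatory T cells), Csf1r (macrophages) and Cd79a (B cells), and at most 1 UMI of the cell cycle genes Mki67 and Top2a together. The gate found 413 cells among the 23730 that passed the filters on genes and mitochondrial UMIs. By library they numbered 124 in WT IgG, 97 in WT anti-PD-1, 107 in KO IgG and 85 in KO anti-PD-1, and values below are given in that order.

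Each of the 4 groups was 1 single-cell library made from the perfused, digested lung of B6 mice. All mice had received KrasG12DP53-/- (KP) lung cancer cells by injection into the blood, and these cells were either wild type (WT) or knocked out (KO) for Asf1a, a histone chaperone gene. Mice were treated for 1 week, at 3 doses per week, with an isotype IgG or with the anti-PD-1 antibody 29F.1A12. The anti-PD-1 dose was 200 µg per mouse, and no amount is listed for the IgG. The knockout lies in the injected tumour cells, so the T cells were of the host in all groups. The age of the mice, the number of mice behind a library and whether the knockout line was 1 clone are not given in the sources used here. With 1 library per group, differences between groups have no replicate check and no test, and every interval given covers counting error only.

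Ly49 receptors are a family of lectin-like proteins, encoded by the Klra genes, that bind MHC class I molecules and are best known from mouse NK cells. Most of them inhibit the cell through phosphatases, while a few activate it through adapter proteins such as Tyrobp (DAP12). On T cells they are known from several unconventional or regulatory CD8 populations, in which the transcription factor Helios (Ikzf2) is often present. Klra1, Klra6 and Klra7 encode Ly49A, Ly49F and Ly49G.

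The 3 genes of the gate lie in the Ly49 cluster of mouse chromosome 6 on the minus strand, and their windows around the transcription start are shown because the members differed in which of them was detected. The sequences are from RefSeq on GRCm38.p6, from 250 bases before to 50 bases after the start. Capitals mark CTTTGA or its reverse complement TCAAAG, the letters of the TCF factor motif, which were searched on both strands.
Klra1, chr6:130386825-130387124: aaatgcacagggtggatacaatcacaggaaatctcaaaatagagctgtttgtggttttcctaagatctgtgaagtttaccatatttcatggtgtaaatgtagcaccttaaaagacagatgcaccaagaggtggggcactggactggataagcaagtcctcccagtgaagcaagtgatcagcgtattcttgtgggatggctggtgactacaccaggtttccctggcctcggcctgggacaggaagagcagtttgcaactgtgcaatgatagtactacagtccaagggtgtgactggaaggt
Klra6, chr6:130026905-130027204: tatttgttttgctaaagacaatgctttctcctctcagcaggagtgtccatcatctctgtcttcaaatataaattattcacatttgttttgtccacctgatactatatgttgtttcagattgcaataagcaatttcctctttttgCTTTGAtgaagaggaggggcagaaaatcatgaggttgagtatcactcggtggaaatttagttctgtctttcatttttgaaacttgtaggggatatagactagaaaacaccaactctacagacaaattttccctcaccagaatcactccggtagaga
Klra7, chr6:130233273-130233572: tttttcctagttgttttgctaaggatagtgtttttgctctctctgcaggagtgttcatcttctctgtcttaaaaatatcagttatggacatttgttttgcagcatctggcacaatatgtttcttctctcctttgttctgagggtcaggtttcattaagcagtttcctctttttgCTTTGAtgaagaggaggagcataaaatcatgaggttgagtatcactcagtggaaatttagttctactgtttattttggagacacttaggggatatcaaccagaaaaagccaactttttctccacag
Klra6 and the Klra7 window shown were alike at 68.2% of aligned bases, whereas Klra1 was alike to them at 44.9% and 44.2%. Klra7 has a further start window in the table, at chr6:130231638-130231937, which is not shown and was alike to Klra6 at 45.7% and to Klra1 at 49.7%. The longest run that Klra6 and Klra7 shared was tttcctctttttgCTTTGAtgaagaggagg, 30 bases that hold the TCF letters. These letters occurred in 5257 of 32851 promoter windows of the same length (16%) (16%) (16%), and they were not in the Klra1 window. The letters TGTGGT or ACCACA of the RUNX motif occurred in the Klra1 window and in 5506 of all windows (16.8%).

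Among the receptors used by the gate, Klra7 had the highest level in every library. Its level as CPM (its UMIs divided by all UMIs of the members of a library and scaled to 1000000) was 511, 752, 849 and 944, and it was detected in 75.0%, 79.4%, 79.4% and 77.6% of members. Klra6 stood at 203, 198, 272 and 194 CPM and Klra1 at 211, 161, 298 and 359 CPM. Klra7 was the only 1 of the 3 detected in 169 members (40.9%), Klra6 alone in 43 and Klra1 alone in 39, while 39 members held all 3. In the last 400 bases of the transcripts, where this kit reads, 13.5% of the 90-base windows of Klra7 also occurred in the pseudogene Klra13-ps, so part of its reads may not be assigned uniquely. No such window of Klra1 or Klra6 was shared. These levels follow from the gate and are a description.

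The gate admits cells with a single Ly49 UMI, and such cells made up 127 of the 413 members. Another 70 held 2 UMIs, 56 held 3 and 160 held 4 or more, up to 28. Among cells that should lack these receptors, a UMI of the 3 genes was found in 1.01%, 1.80%, 0.873% and 3.23% of B cells at median depths of 1818, 1629, 1573 and 2354 UMIs. In neutrophils the share was 0.486% to 1.06%. In T cells passing the same gate apart from the Ly49 condition it was 8.96%, 6.20%, 13.6% and 9.33% at median depths of 2563.5, 2150, 1804.5 and 1920 UMIs, and in NK cells 37.6% to 50.4%. The share in T cells was thus above that in B cells in each library. In KO anti-PD-1 their exact intervals overlapped, at 7.52% to 11.4% and 0.886% to 8.05%. Cells with a single UMI were 43 of 1384, 35 of 1565, 27 of 786 and 22 of 911 gated T cells. Their share was above the B-cell share in the IgG libraries, little above it in WT anti-PD-1 and below it in KO anti-PD-1. Whether single-UMI members exceeded this background was not tested.

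The other genes of the cell label were checked against the number of Ly49 UMIs. Ikzf2, which encodes Helios, was detected in 20.6% of the 4233 Ly49-negative T cells just outside the threshold, in 36.2% of members with 1 UMI and in 76.9% of members with 4 or more. Xcl1, the chemokine that attracts cross-presenting dendritic cells, was detected in 10.7%, 39.4% and 61.3% of the same cells. Cd7, a surface glycoprotein of T and NK cells, was detected in 20.2%, 44.1% and 70.6%. Of the T-receptor constant genes, Trac was detected in 59.5%, 64.6% and 59.4% and Trbc2 in 78.8%, 78.7% and 87.5%. For Ikzf2, Xcl1 and Cd7, members with 1 UMI lay between the Ly49-negative T cells and the members with many. For Trac and Trbc2 they did not. The label genes were chosen for their difference between members and other T cells, so this order is a description.

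Summed over each class, the label genes were higher in members than in Ly49-negative T cells in every library. Ikzf2 stood at 859, 846, 747 and 573 CPM in members, 199, 259, 219 and 202 CPM in Ly49-negative T cells and 148, 82.6, 71.3 and 24.0 CPM in NK cells. Cd7 stood at 436, 638, 657 and 680 CPM in members against 117, 177, 99.4 and 199 CPM in Ly49-negative T cells. Xcl1 stood at 908, 561, 725 and 618 CPM against 260, 284, 253 and 284 CPM, with 1 cell holding 27.3% of the Xcl1 UMIs of the WT IgG members. In NK cells Cd7 stood at 426, 373, 313 and 408 CPM and Xcl1 at 1623, 1273, 2409 and 600.4 CPM, so that Xcl1 was lower in members in 3 of 4 libraries. Members and Ly49-negative T cells did not overlap in any of the 3 genes. They are given without a test because they were chosen for this difference. In single cells, 355 of 413 members held a UMI of at least 1 of the 3, and 104 (25.2%) held all of them, while 58 held none.

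**Figure D1:**
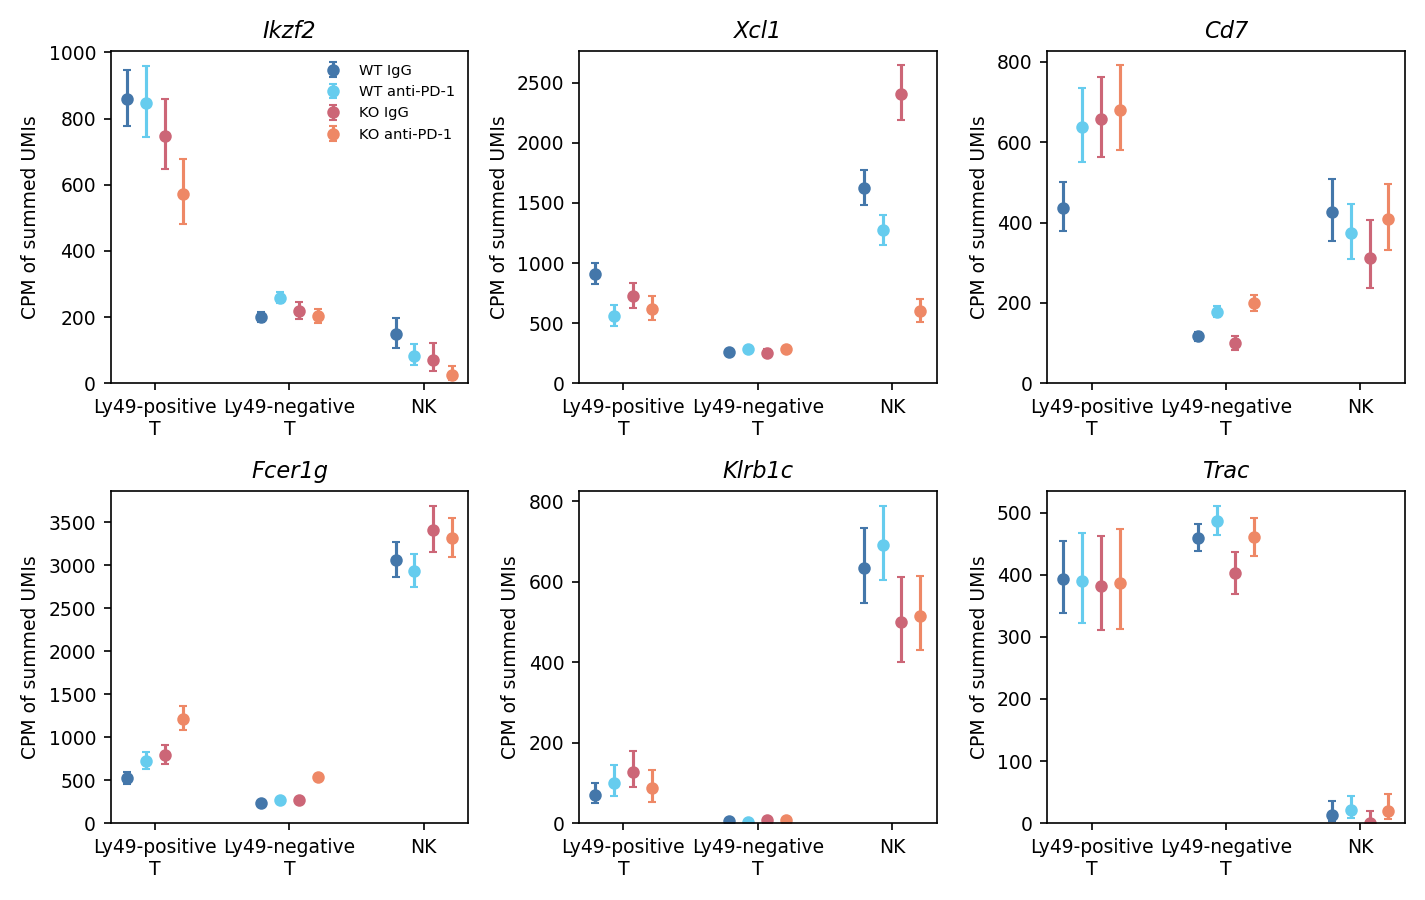
Levels (CPM of summed UMIs, vertical axes) of 6 genes by cell class, with 1 point per library and bars for 95% counting intervals. Ikzf2 and Cd7 are higher in members than in Ly49-negative T cells in every library, while Trac lies at 381 to 393 CPM in members, close to the Ly49-negative T cells and far above the NK cells.

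The members carried RNA of the alpha-beta T-cell receptor. Trac, its alpha constant gene, stood at 393, 390, 381 and 387 CPM in members, 460, 487, 402 and 460 CPM in Ly49-negative T cells and at most 21.4 CPM in NK cells. The fitted difference from Ly49-negative T cells was -0.15 on the log2 scale, with an edgeR adjusted p of 0.43. Trbc2 and Trbc1, the beta constant genes, differed by -0.19 (adjusted p = 0.18) and -0.35 (adjusted p = 0.068). Zbtb16, the transcription factor that defines NKT cells, had at most 1 UMI in any library's members. Of 11 genes in the NKT list 3 could be tested, and 1, Klrb1c, was higher in members, as described with the receptors.

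Gamma-chain RNA was higher in the members than in Ly49-negative T cells, although Trdc, the delta constant gene, was at 0 by the gate. Of 4 gamma-delta genes tested, 3 were higher in members than in Ly49-negative T cells (all-gene background: 3.1% of 6873 genes were higher and 3.3% lower at an edgeR adjusted p under 0.05). Tcrg-C4 differed by 2.64 (adjusted p = 9.0e-06), Tcrg-C1 by 1.39 (adjusted p = 0.015) and the variable gene Trgv2 by 1.05 (adjusted p = 0.014). Tcrg-C2 differed by 0.55 (adjusted p = 0.18). Levels were low, with Tcrg-C4 between 30.2 and 49.5 CPM in members and between 2.21 and 13.4 CPM in Ly49-negative T cells. The sum of the gamma-delta list was found in 26.2% to 36.1% of members.

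Coreceptor RNA was lower in the members than in Ly49-negative T cells, which include conventional CD4 and CD8 T cells. No UMI of Cd4, Cd8a or Cd8b1 was found in 229 members (55.4%), with 50%, 55.7%, 61.7% and 55.3% by library. Cd8b1, the beta chain of conventional CD8 heterodimers, was detected without Cd4 in 93 members (22.5%), and Cd8a without Cd8b1 or Cd4 in 80 (19.4%). Cd4 without Cd8 was found in 8 members and Cd4 with Cd8 in 3. In the comparison with Ly49-negative T cells, Cd4 was lower by -3.29 (adjusted p = 1.7e-07), Cd8b1 by -1.47 (adjusted p = 7.1e-09) and Cd8a by -0.64 (adjusted p = 0.0016). A coreceptor at 0 in a cell of this depth does not show that the cell lacks it.

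The 2 CD8 chains were not lowered alike. Members held 0.829, 0.852, 0.569 and 0.789 UMIs of Cd8b1 per UMI of Cd8a, against 1.44, 1.30, 1.43 and 1.20 in Ly49-negative T cells. The member ratio was the lower in each library. The 95% intervals of both classes did not overlap in the IgG libraries (WT 0.616 to 1.11 against 1.33 to 1.56, KO 0.359 to 0.887 against 1.25 to 1.63). They overlapped in the anti-PD-1 libraries (WT 0.577 to 1.25 against 1.22 to 1.39, KO 0.472 to 1.31 against 1.08 to 1.34). These ratios compare 2 genes that the kit may capture unequally, so only their difference between classes is read.

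**Figure D2:**
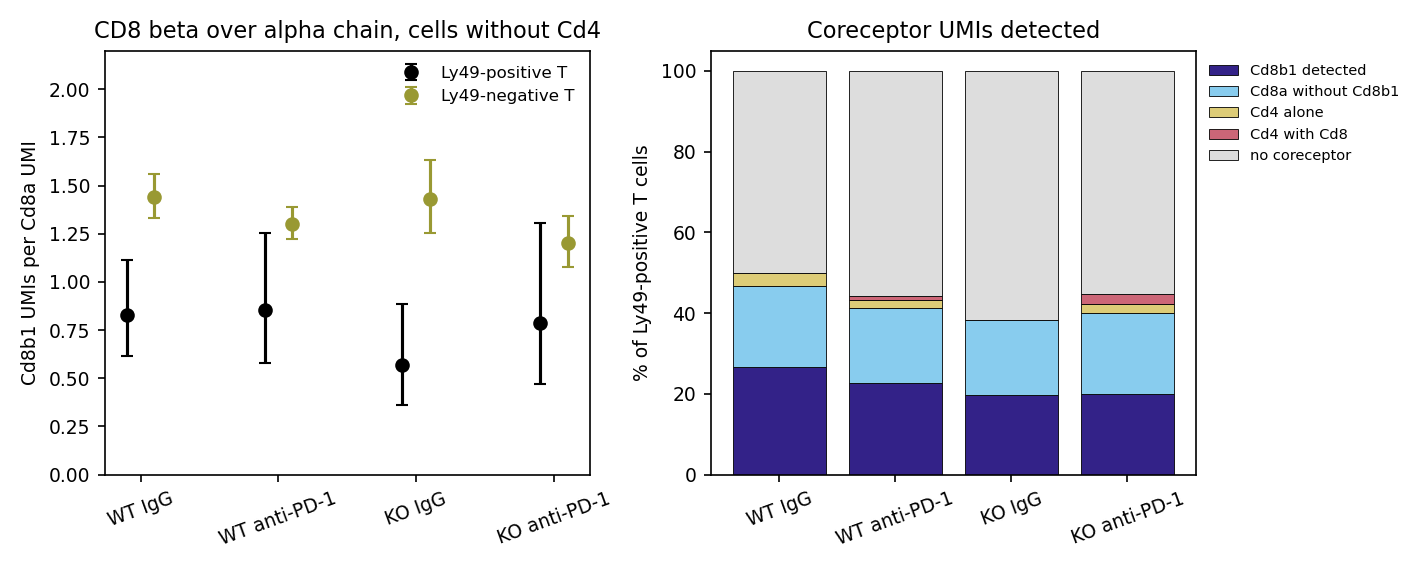
Left, UMIs of Cd8b1 per UMI of Cd8a (vertical axis) by library for members and Ly49-negative T cells, with 95% counting intervals. Right, percent of members in each library by detected coreceptor, as stacked bars, in which cells without a coreceptor UMI make up 50% to 61.7%.

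The members also differed from Ly49-negative T cells across the receptors that T and NK cells share. Of 6873 genes tested in edgeR's quasi-likelihood fit with the library as a block, 213 (3.1%) were higher and 227 (3.3%) lower at an adjusted p under 0.05. Without normalisation factors the split was 160 higher and 306 lower. Since the 4 libraries came from 4 conditions, the test asks for a difference shared by them. Of 5 Ly49 genes outside the gate that could be tested, out of 8 in the list, 4 were higher, with a list median of 3.79 beside 0.00066 for all genes. They were Klra3 (3.28), Klra5 (4.53), Klra8 (4.09) and Klra9 (3.79), while Klra4 differed by 1.11 (adjusted p = 0.13). The 4 higher genes were detected in 39, 18, 17 and 40 of the 413 members. Of the last 400 bases, 6.11% of the 90-base windows of Klra9 and 0.965% of those of Klra3 occurred in another family member, so the values of these genes are less certain, while Klra4, Klra5 and Klra8 shared no window.

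Of 11 other NK-type receptors tested, 9 were higher in members and none lower (all genes: 3.1% higher and 3.3% lower). The list median was 1.27. Klrb1c, which encodes NK1.1, stood at 71.2, 101, 128 and 86.6 CPM in members and at 6.46, 3.0, 8.10 and 7.35 CPM in Ly49-negative T cells. The ranges did not overlap, and the fitted difference was 4.03 ± 0.26 (SE, adjusted p = 5.0e-10). Klrk1, the activating receptor NKG2D, stood at 170, 302, 223 and 136 CPM against 52.8, 81.9, 64.1 and 50.9 CPM (1.79 ± 0.14, adjusted p = 5.1e-09). Klrc2 (NKG2C), Klre1 and Klrb1f were higher by 1.97, 1.75 and 2.51, and Klrd1 (CD94), Klrc1 (NKG2A), Cd160 and Cd244 by 0.88 to 1.27. Slamf7 and Klri2, the 2 that did not pass, differed by 0.49 (adjusted p = 0.36) and -0.38 (adjusted p = 0.68).

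Among the 7 signalling adapters and phosphatases tested, Fcer1g and Hcst were higher and Cd247 was lower, and Fcer1g had the largest difference. This gene encodes the Fc receptor gamma chain, which several NK receptors and innate-like T cells signal through. It stood at 520, 726, 789 and 1212 CPM in members and at 238, 269, 264 and 535 CPM in Ly49-negative T cells, with a difference of 1.39 ± 0.09 (adjusted p = 4.6e-10). Members were higher within each library, although the KO anti-PD-1 Ly49-negative cells reached the level of the WT IgG members. Hcst (DAP10, the partner of NKG2D) was higher by 0.27 (adjusted p = 0.040), and Tyrobp (DAP12) differed by 0.26 (adjusted p = 0.15). Cd247, the zeta chain, was lower by -0.60 (adjusted p = 0.019).

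Several components of T-receptor signalling were lower. Of 11 genes tested in that list, 5 were lower and none higher (all genes: 3.3% lower and 3.1% higher), with a median of -0.35. Cd6 and Cd5, receptors that dampen T-receptor signals, differed by -1.24 (adjusted p = 0.00044) and -1.19 (adjusted p = 0.00099), and the adapter Lat by -1.02 (adjusted p = 2.4e-06). The costimulatory receptor Cd28 was lower by -0.60 (adjusted p = 0.0054). Cd2, Cd27 and Thy1 differed by -0.08, 0.12 and -0.03, with adjusted p of 0.80 or more. Bcl11b, a factor that maintains T-cell identity, was lower by -0.92 (adjusted p = 8.8e-05).

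Spry2, a feedback inhibitor of receptor tyrosine kinase and Ras signalling, had the largest difference after Klrb1c among the higher genes named by rule. Its level was 119, 111, 155 and 214 CPM in members and 7.02, 12.8, 9.58 and 15.2 CPM in Ly49-negative T cells. Every member value lay above every other value, and the fitted difference was 3.78 ± 0.21 (adjusted p = 2.9e-11). Carbonic anhydrase Car2 was higher by 2.41 (58.3, 148, 102 and 82.4 CPM against 15.7, 19.9, 16.9 and 22.6 CPM). Itga1, the collagen-binding integrin CD49a, was higher by 1.49 (53.9, 131, 121 and 61.8 CPM against 26.7, 54.1, 30.9 and 19.9 CPM). Samd3, 1700025G04Rik and Klhdc2 were higher by 1.91, 1.69 and 1.47. The share of cells with a Spry2 UMI was 1.70% in Ly49-negative T cells, 11.0% in members with 1 Ly49 UMI and 31.3% in members with 4 or more.

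Inhibitory receptors were in part lower in the members. Of 9 inhibitory receptors and their regulators tested, 5 were lower and 1, Cd160, was higher. The list median was -1.27, and of all genes 3.3% were lower and 3.1% higher. Pdcd1, which encodes PD-1, lay between 3.36 and 20.6 CPM in members and between 48.6 and 123 CPM in Ly49-negative T cells (-3.08, adjusted p = 2.6e-07). Lag3 was lower by -1.86, Ctla4 by -1.80, Cd200 by -1.60 and Tox, the factor of the exhaustion programme, by -1.27. Of 11 activation genes tested 3 were lower and none higher, the costimulatory receptors Tnfrsf4 (OX40) and Icos by -3.16 and -1.76 and Cxcr6 by -1.30. Cd69 and Cd44, markers of activation, differed by 0.09 and -0.06 with adjusted p of 0.86 and 0.89.

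Effector genes moved in different directions. Of 11 cytotoxic genes tested, 3 were higher, 1 was lower and 7 did not pass. The list median was -0.0041, and of all genes 3.1% were higher and 3.3% lower. Gzmc (granzyme C) was higher by 4.19, Ctsw by 0.95 and Gzma by 1.03 (adjusted p = 0.018), while Gzmk was lower by -2.83. Gzmc was detected in only 14 of the 413 members. Gzma also rested on few cells, since 1 cell held 63.0% of its UMIs in the WT anti-PD-1 members. Prf1 (perforin), Gzmb and Nkg7 differed by -0.07, -0.09 and 0.00, each with an adjusted p above 0.90. Of the chemokines, Ccl4 was lower, at 186, 208, 106 and 136 CPM in members and 475, 1190, 491 and 1325 CPM in Ly49-negative T cells (-2.21, adjusted p = 7.1e-09). Ifng was lower by -1.45 (adjusted p = 0.0019), and Ccl5 differed by -0.21 (adjusted p = 0.58).

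Genes of memory-type CD8 cells and of cytokine sensing were in part higher. Ly6c2 was higher by 1.28, Il2rb, the receptor chain shared by IL-2 and IL-15, by 0.97 (375 to 474 CPM against 193 to 269 CPM) and the survival gene Bcl2 by 0.84. Those were 3 of the 8 memory-type genes tested (all genes: 3.1% higher and 3.3% lower). Eomes, Tbx21 and Id2 differed by 0.71, 0.38 and -0.35 and did not pass (adjusted p = 0.075, 0.60 and 0.096). Of 11 genes of naive T cells tested, 4 were lower, 1 was higher and 6 did not pass. Ccr7 was lower by -1.11, S1pr1 by -0.67 and Dapl1 by -2.10. Tcf7, Il7r and Lef1 differed by 0.09, 0.00 and -0.26 with adjusted p of 0.56 or more. Among factors of other T-cell lineages, Maf, Rora and Prdm1 were lower by -2.98, -2.53 and -2.07. Itgae and Cxcr6, a residency integrin and a tissue-homing receptor, were lower by -0.96 and -1.30.

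By fold of mean CPM over the 4 libraries, the genes most like the gate in their split between members and Ly49-negative T cells were Klra5 (22.5-fold), Klra8 (18.9-fold), Klrb1c (15.5-fold), Gzmc (14.3-fold), Klra9 (13.8-fold), Spry2 (13.4-fold), Klra3 (9.57-fold) and Kifc3 (7.32-fold). Each was higher in 4 of 4 libraries. Most were found in a small part of the members. Of the 413 members, Klra5, Klra8 and Gzmc were detected in 18, 17 and 14. Klra9, Klra3 and Klrb1c were detected in 40, 39 and 77. Kifc3 rested on 20 UMIs in members.

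Markers of NK cells moved with this comparison. The list of Ncr1, Klrb1c, Klre1, Klri2 and Klrb1f summed to 272 to 480 CPM in members, 73.5 to 150 CPM in Ly49-negative T cells and 2431 to 2931 CPM in NK cells, and 46.8% to 54.6% of members held a UMI of it. Ncr1 was at 0 by the gate. When cells with a UMI of Klrb1c or Klre1 were removed from both classes, 218 members remained, and 70 genes were higher and 89 lower. Spry2 was then higher by 3.45, Klra3 by 2.76, Klrk1 by 1.72, Klrc2 by 1.68, Ly6c2 by 1.39 and Il2rb by 0.75, and Pdcd1 was lower by -2.66, all past the threshold. Gzma turned to -1.18 (adjusted p = 0.022). Of the epithelial list, Krt8 and Krt18 were lower in members by -1.77 and -1.45 and Epcam higher by 1.30 (adjusted p = 0.046), and 25.2% to 33.0% of members held a UMI of that list against 16.8% to 23.6% of Ly49-negative T cells. Members also held more UMIs per cell, with medians of 3310, 2793, 2334 and 2508 against 2474, 2092, 1706 and 1785.5. The part of the epithelial RNA and of depth in these differences was not tested beyond the thinned counts given at the end.

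**Figure D3:**
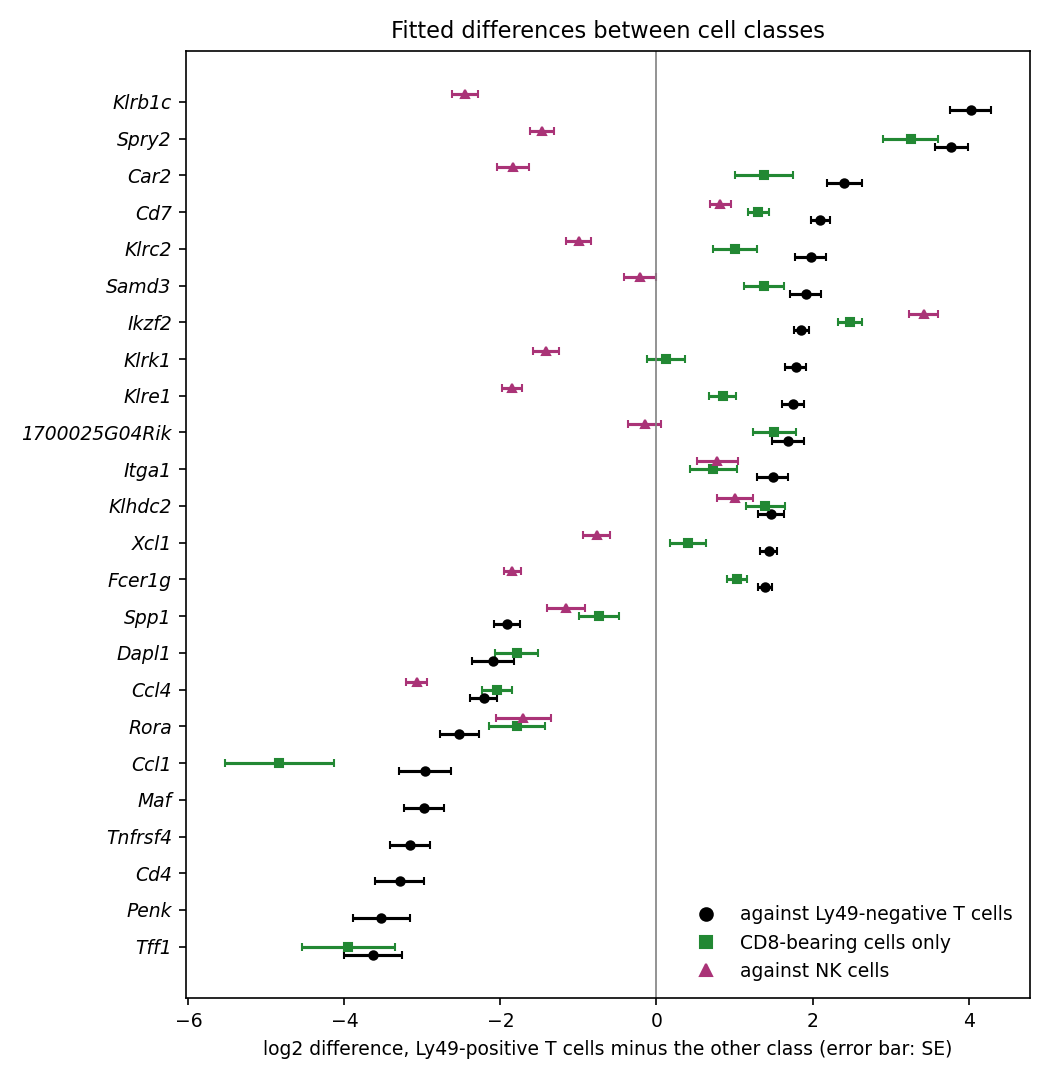
Fitted log2 difference (horizontal axis, points with SE bars) of the 24 genes named by rule in the comparison with Ly49-negative T cells, together with the same genes among CD8-bearing cells and against NK cells where they could be tested. Klrb1c and Spry2 lie farthest to the right at 4.03 and 3.78, and Tff1 and Penk farthest to the left at -3.64 and -3.53.

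To hold the coreceptor alike, the 173 members with Cd8a or Cd8b1 and without Cd4 were compared with 2180 Ly49-negative T cells of the same kind. Of 4718 genes tested, 35 (0.742%) were higher and 48 (1.02%) lower. Without cells holding Klrb1c or Klre1 4 genes were higher and 8 lower, and without the library as a block 11 and 6. Of the 35 higher and 48 lower genes, 34 and 41 had the same call in the comparison of all T cells. That is 97.1% and 85.4% of the CD8 calls and 15.96% and 18.1% of the calls over all T cells. Each CD8-bearing class is part of the larger class, so the comparisons share cells and this overlap is a description. Spry2 stood at 67.8, 71.8, 88.2 and 106 CPM against 4.56, 6.95, 9.75 and 17.9 CPM (3.26 ± 0.35, adjusted p = 2.6e-06). Klra3 was higher by 3.15 and the pro-apoptotic gene Bcl2l11 (Bim) by 1.05. Fcer1g stood at 419, 467, 388 and 796 CPM against 211, 224, 223 and 385 CPM (1.03 ± 0.12, adjusted p = 1.3e-05). Without Klrb1c or Klre1 cells, Fcer1g (0.36) and Klra3 (2.35) did not pass, whereas Gzmk, Ccl4, Ccl5, Itgae, S100a4 and Ly6c2 still did. The label gene Ikzf2 stood at 805, 625, 555 and 451 CPM against 99.9, 141, 116 and 101 CPM, without overlap. Cd7 stood at 411, 567, 370 and 557 CPM against 165, 242, 127 and 278 CPM, also without overlap. Xcl1 stood at 1169, 380, 432 and 230 CPM against 415, 377, 347 and 491 CPM and overlapped, with 1 cell holding 41.7% of its UMIs in the WT IgG members.

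Among CD8-bearing cells 1 of 7 NK-type receptors tested was higher, Klre1 (0.85, adjusted p = 0.0091), with a list median of 0.21 beside 0.016 for all genes, and Klrk1 differed by 0.12 (adjusted p = 0.94). Of 10 cytotoxic genes 3 were lower and none higher (all genes: 1.02% lower and 0.742% higher). The lower genes were Gzmk (-3.45), Gzmb (-1.14, adjusted p = 0.042) and Nkg7 (-0.53). The chemokines Ccl4 and Ccl5 were lower by -2.05 and -1.18. Pdcd1, Ctla4 and Lag3, 3 of 6 inhibitory genes, were lower by -2.58, -1.57 and -1.36. Cxcr6 and Itgae were lower by -1.45 and -1.55, while the receptors Il2rb and Ifngr1 were higher by 0.66 and 0.58. Whether a difference was smaller among CD8-bearing cells than among all T cells was not tested.

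The members were also compared with the 458 NK cells of the same libraries. NK cells were chosen by a UMI of Ncr1 without CD3, and members by CD3 without Ncr1. Differences in T-cell, NK-type and cytotoxic genes therefore follow in part from the gates and are a description. Of 3397 genes tested, 292 (8.6%) were higher and 274 (8.07%) lower, and without normalisation factors 195 higher and 484 lower, with the median of all genes moving from 0.02 to -0.17. Trac, Cd8a and Trbc2 were higher by 4.83, 4.0 and 2.74, genes that follow the gate on CD3, and Il7r was higher by 2.27, Tcf7 by 1.65, Lef1 by 2.01 and Bcl11b by 3.26. All 4 Ly49 genes tested were lower in members, Klra4 at 19.4, 16.8, 64.2 and 8.24 CPM against 758, 682, 785 and 420 CPM (-4.50, adjusted p = 4.8e-11), and Klra8 (-3.96), Klra9 (-2.32) and Klra3 (-2.0). Of 14 other NK-type receptors 13 were lower, Klrb1c by -2.45 and Klrk1 by -1.42. Of 9 cytotoxic genes 7 were lower. Prf1 stood at 25.9, 23.5, 7.55 and 37.1 CPM in members and 515, 505, 209 and 404 CPM in NK cells (-3.95, adjusted p = 4.9e-11). Fcer1g and Tyrobp were lower by -1.85 and -2.43. Cd160, the receptor that was not lower, differed by 0.47 (adjusted p = 0.25). The receptors Klrb1c, Klrk1, Klrc2, Klre1, Klrb1f, Klrd1, Klrc1 and Cd244 were higher in members than in Ly49-negative T cells. Against NK cells, which were gated on Ncr1, they were lower.

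The members were not uniform. When divided by a UMI of Ikzf2, 248 members (60.05%) held one and 165 did not, with median depths of 2684 and 2947 UMIs, so the cells with Ikzf2 were not the deeper ones. The following folds compare mean CPM over the libraries and go the same way in all 4, as a description. Cells with Ikzf2 held more Itgae (52.2 against 12.3 CPM, 4.25-fold), Klra6 (299 against 106 CPM), Cd7 (819 against 316 CPM), Tcrg-C2 (70.9 against 23.3 CPM), Cd160 (2.24-fold), Xcl1 (1.99-fold) and Itga1 (1.88-fold). They held less Cd8b1 (71.1 against 268 CPM), Klra8 (28.1 against 117 CPM), Klra4 (4.10 against 55.9 CPM) and Gzma (103 against 768 CPM). Cd8a differed little, at 195 and 216 CPM. These groups were cut from detection in sparse counts and are ranges, not types.

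**Figure D4:**
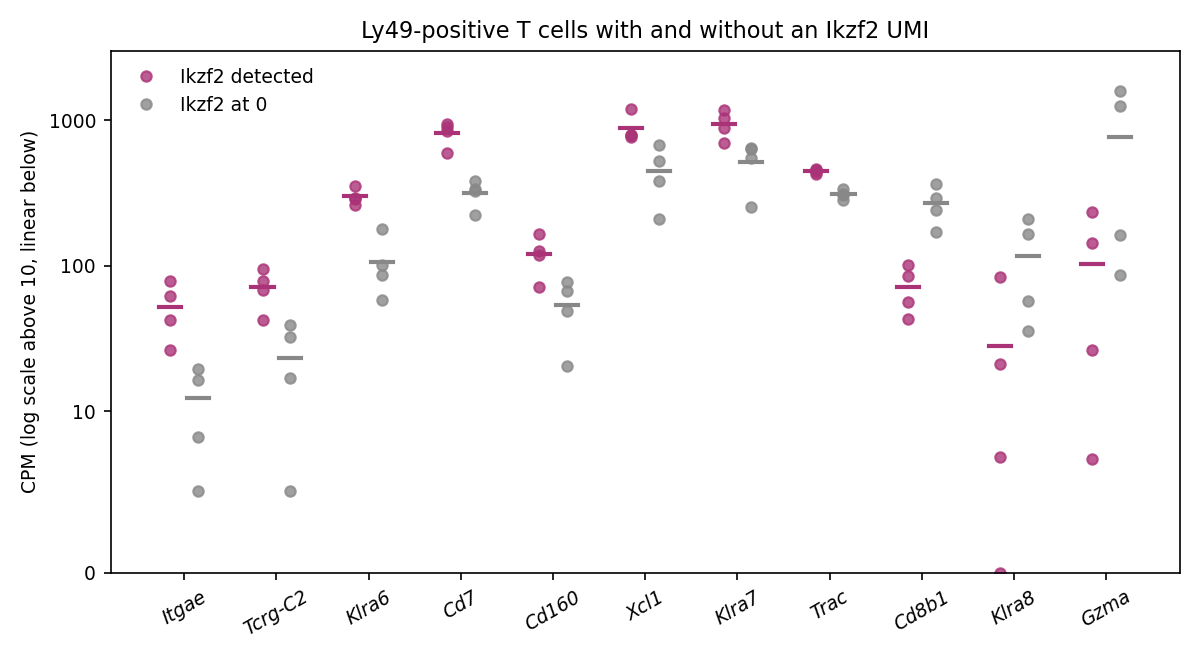
Levels (CPM on a symmetric log axis) of 11 genes in members with and without a UMI of Ikzf2, with 1 point per library and a line at the mean over libraries. Cd7 lies at means of 819 and 316 CPM with and without Ikzf2, and Cd8b1 at 71.1 and 268 CPM.

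The division by coreceptor ran in part along the same genes. Ikzf2 stood at a mean of 281 CPM in the 93 members with Cd8b1, 1101 CPM in the 80 with Cd8a only and 908 CPM in the 229 without coreceptor. Cd8a-only cells exceeded Cd8b1 cells 3.92-fold, in 4 of 4 libraries, and Cd7 followed at 318, 733 and 732 CPM. Klrk1 stood at 106, 71.0 and 318 CPM in the same order, Klrb1c at 42.2, 52.6 and 149 CPM and Fcer1g at 463, 614 and 1096 CPM, each highest in the cells without coreceptor. Tcrg-C4 stood at 3.73, 36.2 and 67.5 CPM, and the lymph-node homing receptor Ccr7 at 108, 77.3 and 48.0 CPM. Median depths were 3686, 2741 and 2499 UMIs, so the cells without coreceptor were also the shallowest.

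Which Ly49 gene a cell held went with other genes too. The 43 members with Klra6 alone held 11.2 CPM of Gzma, against 771 CPM in the 169 with Klra7 alone. They held 307 against 717 CPM of Xcl1, 14.8 against 67.0 CPM of Eomes and 23.4 against 108 CPM of Klrc1 (NKG2A). Each was lower in 4 of 4 libraries. The members with Klra6 alone numbered only 13, 13, 11 and 6 by library, however, so their low values of Gzma, Eomes and Klrc1 rest on few UMIs. Gzma in the Klra7 cells was again carried by few cells.

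The share of Ly49-positive cells among gated T cells was highest with Asf1a-knockout tumours under IgG. It was 8.96% (124 of 1384, exact 95% interval 7.51% to 10.6%), 6.20% (97 of 1565, 5.05% to 7.51%), 13.6% (107 of 786, 11.3% to 16.2%) and 9.33% (85 of 911, 7.52% to 11.4%). The ratio of KO IgG to WT IgG was 1.52 (1.16 to 1.98) and that of KO to WT under anti-PD-1 1.51 (1.11 to 2.04). Anti-PD-1 over IgG gave 0.692 (0.525 to 0.910) with WT and 0.685 (0.509 to 0.920) with KO tumours. The denominator moved as well, since gated T cells numbered 786 and 911 in the KO libraries and 1384 and 1565 in the WT libraries. Of all kept cells the members were 2.16%, 1.54%, 1.78% and 1.497%, and there KO over WT was 0.823 (0.629 to 1.07) under IgG and 0.970 (0.716 to 1.31) under anti-PD-1. At full depth, KO was thus above WT among T cells and not among all cells.

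Depth differed between libraries, so shares were also taken after thinning to 1000 UMIs per cell. Cells with fewer UMIs were left out, which kept 5126 of 5745, 5303 of 6285, 3796 of 6023 and 3535 of 5677 cells, a smaller share in the KO libraries. The share of T cells was then 5.06%, 4.23%, 10.1% and 6.47%, and KO IgG over WT IgG was 1.997 (1.33 to 3.02). KO over WT under anti-PD-1 was 1.53 (0.977 to 2.38). Anti-PD-1 over IgG was 0.835 (0.550 to 1.27) with WT and 0.640 (0.411 to 0.988) with KO tumours. Of all cells the thinned shares were 0.917%, 0.943%, 1.42% and 1.07%, with KO IgG over WT IgG at 1.55 (1.03 to 2.34) in place of 0.823. Thinning and the loss of shallow cells changed together and unequally between libraries, and their parts were not told apart. Among T cells KO was above WT under IgG in both cases.

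**Figure D5:**
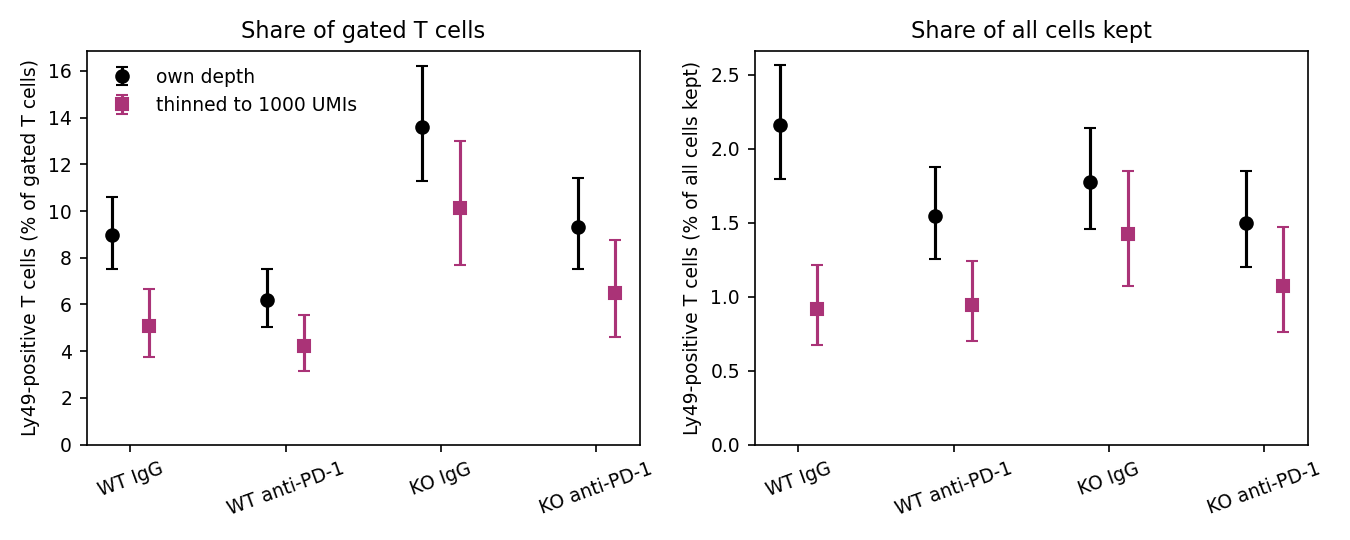
Percent of gated T cells and of all kept cells (vertical axes) that were Ly49-positive in each library, with exact 95% intervals, at full depth and after thinning to 1000 UMIs per cell. Among gated T cells KO IgG is highest in both, at 13.6% and 10.1%.

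Levels of genes within the members were compared between libraries by the ratio of CPM, and a gene was counted as different where it had at least 40 UMIs in both libraries together and a ratio of at least 2. With KO over WT under IgG, 34 of 2059 genes (1.65%) were higher and 35 (1.7%) lower. The largest increase among genes not carried by single cells was Klra9, at 136 against 19.4 CPM (log2 ratio 2.81, interval 1.73 to 4.05). Spp1 (osteopontin) and Wfdc17 were higher by 1.99 and 1.62. Spp1 was also higher in the Ly49-negative T cells of KO IgG, at 419 against 87.3 CPM in WT IgG. Ighg2b and Ighg1, immunoglobulin genes of plasma cells, were lower by -2.16 and -1.44, and Kif1b by -2.08. With anti-PD-1 over IgG in mice with WT tumours, 31 of 2148 genes (1.44%) were higher and 23 (1.07%) lower, among them Dusp5, a nuclear ERK phosphatase, at 141 against 49.6 CPM (1.51), and Car2 (1.34). Wbp4 and Tnrc6a were lower by -1.53 and -1.15. Ikzf2, Xcl1 and Cd7 did not reach a 2-fold ratio in any of the 4 contrasts.

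In the KO anti-PD-1 library, 47 of 1494 genes (3.15%) were higher and 34 (2.28%) lower than in KO IgG, and 48 of 1609 (2.98%) were higher and 46 (2.86%) lower than in WT anti-PD-1. The contrasts share this library. Higher in both were Cd14 (280 against 56.6 CPM in KO IgG, 2.31, and 3.58 over WT anti-PD-1), Alox5ap (2.31 and 2.65) and Ifitm2 (1.90 and 1.90), and Scgb1a1, a club-cell secretory protein, at 206 CPM against 0 UMIs in KO IgG (at least 18.2-fold higher, against 3 counts). The interferon-induced gene Ifi27l2a was higher than in KO IgG, at 289 against 60.4 CPM. Cd14 and Scgb1a1 are genes of other cell types, and 4 of 4 measured neutrophil genes were higher in both contrasts, with medians of 2.07 and 2.49. The neutrophil list summed to 2022, 1122, 1604 and 6393 CPM in members, and Scgb1a1 stood at 66.3, 21.0, 63.3 and 8325 CPM in Ly49-negative T cells. The part of RNA of other cells in these differences was not tested.

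Of the naive T-cell genes with enough UMIs, 1 of 5 was lower in KO anti-PD-1 members than in KO IgG (2.28% of all genes were) and 1 of 7 than in WT anti-PD-1 (2.86%). Of the homing receptors 1 of 4 and 2 of 6 were lower. Foxp1, a factor of T-cell quiescence, stood at 53.6 CPM against 170 CPM in KO IgG (-1.66) and was lower than in WT anti-PD-1 by -1.91. Cd69 stood at 70.1 against 219 CPM (-1.64) and Il7r at 190 against 461 CPM (-1.28) relative to KO IgG. S1pr1, the receptor for exit from tissue, stood at 134, 101, 83.0 and 20.6 CPM, but its 5 UMIs in KO anti-PD-1 left it under the minimum of 40 UMIs, so it was not counted. Tle4 was lower than in KO IgG by -2.15 and Cdkn1b than in WT anti-PD-1 by -1.68. The largest decreases among genes not carried by single cells were of other genes. They were Gm42418 relative to KO IgG, at 338 against 2204 CPM (-2.71), and Vgll4 relative to WT anti-PD-1 (-2.03). The mitochondrial gene mt-Atp8 was lower in both contrasts, by -1.79 and -1.86.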

How the data were processed

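Per the file headers, Cell Ranger 3.0.0 wrote the deposited whole-number UMI counts of each gene in each cell. Besides bcl2fastq and Cell Ranger, the submitters' processing notes give hg19. That build is human, whereas the 31053 gene identifiers are all from mouse Ensembl, so the build of the alignment could not be settled. Libraries were made with the 10x 3' v2 kit per the labels' protocols. Their totals were 22506737, 22369904, 17578188 and 16078095 UMIs. The only list of barcodes used here has 6074 entries and matches 1 library by its length, so barcodes shared between libraries could not be counted.

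The members, gene lists and comparisons were chosen with earlier results of these data known. Ly49-negative T cells passed the same gate with 0 UMIs of Klra1, Klra6 and Klra7. NK cells had a UMI of Ncr1 and none of Cd3d, Cd3e or Cd3g. UMIs were summed per library and class and fitted with edgeR 4.0.16 (R 4.3.3) by the quasi-likelihood test, with TMM factors, filterByExpr, the library as a block, and Benjamini-Hochberg adjustment over all genes tested at 0.05. The 13 gate genes were left out of the tests. With the library as a block, p-values measure how far the difference between classes varied over these 4 libraries. The libraries are of 4 conditions, and nothing says how many mice each holds. In simulated data for these comparisons, 65.9%, 61.7% and 66.7% of genes changed by 1 on the log2 scale were recovered for all T cells, CD8-bearing cells and NK cells (6907, 4698 and 3439 genes). For a change of 2 the shares were 98.2%, 98.9% and 100%. False calls numbered 10, 8 and 11. Changed genes were drawn only from those of higher level, with a fixed spread and the same means in all libraries. The recovered shares therefore do not hold for genes of low level.

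Named genes were the 14 higher and 10 lower with the largest fitted change among those called, alike in direction in 4 of 4 libraries and reaching 50 CPM in the higher class in every library. For library contrasts they were the 5 largest ratios in each direction with no cell holding over 25% of the UMIs. List members were named for their UMIs or their change. Shares have exact Clopper-Pearson 95% intervals and ratios exact conditional ones. Doublets were not removed. By Scrublet (scanpy 1.11.5) 6, 2, 4 and 3 members scored over 0.25. Gene loci and transcript ends are from GENCODE, and promoters are from RefSeq, in which Ikzf2 and Cd7 were not matched. Alternatives were a 5% mitochondrial limit, 2 Ly49 UMIs, no high Scrublet scores, no Klrb1c or Klre1 UMI, cells thinned to 1000 UMIs, DESeq2 1.42.0, no normalisation factors, no filter, no block, each library left out, and for library contrasts TMM factors, a minimum of 100 UMIs and the mean of the cells' CPM.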

Additional observations from a re-analysis of the deposited data

Results flagged for a closer look

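S100a8, a neutrophil gene, moved in opposite directions under anti-PD-1 in the members of WT and KO libraries. The log2 ratio of anti-PD-1 over IgG was -1.15 with WT and 2.09 with KO tumours, from 1066, 480, 766 and 3252 CPM, and 1 cell held 57.7% of the S100a8 UMIs in WT IgG, while in KO anti-PD-1 the highest cell held 29.0%. Itga1 moved in opposite directions with the tumour genotype, by 1.16 for KO over WT under IgG and -1.08 under anti-PD-1, from 53.9, 131, 121 and 61.8 CPM. With 1 library per group, neither difference was tested.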

How the results depend on the processing

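Members and the other cells of a library were paired through the library block, while between groups no pairing exists, since each holds 1 library. Without the library as a replicate block, 70 genes were higher and 72 lower against Ly49-negative T cells, 11 and 6 among CD8-bearing cells, and 229 and 197 against NK cells, compared with 213 and 227, 35 and 48, and 292 and 274. Without cells holding Klrb1c or Klre1 the counts were 70 and 89 for all T cells and 4 and 8 for CD8-bearing cells. Thinned to 1000 UMIs they were 61 and 62, 6 and 18, and 143 and 107. DESeq2 called 113 and 84, 16 and 14, and 164 and 130. Without the filter 396 genes were lower for all T cells, and 22 higher and 175 lower for CD8-bearing cells. Without normalisation factors 484 were lower than in NK cells.

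Leaving out 1 library gave 101 to 176 higher and 112 to 245 lower genes for all T cells, 13 to 44 and 21 to 83 for CD8-bearing cells, and 195 to 289 and 173 to 244 against NK cells. For all T cells the counts were 101 and 127 without WT anti-PD-1 and 112 and 112 without KO IgG. For CD8-bearing cells they were 13 and 22 without WT IgG, 20 and 21 without WT anti-PD-1, and 44 and 83 without KO anti-PD-1. Without WT anti-PD-1, 173 genes were lower than in NK cells.

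After thinning, the share ratio of KO IgG to WT IgG was 1.997 of T cells and 1.55 of all cells, and that of WT anti-PD-1 to WT IgG turned to 1.03 of all cells.

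Counts of genes past 2-fold between libraries fell to 3 higher and 0 lower (KO IgG over WT IgG), 3 and 2 (WT anti-PD-1 over WT IgG), 4 and 3 (KO anti-PD-1 over KO IgG) and 3 and 5 (KO anti-PD-1 over WT anti-PD-1) after thinning. With at least 100 UMIs they were 0 and 6, 3 and 6, 24 and 5, and 23 and 6 in the same order. Without Klrb1c or Klre1 cells, 19 were higher in KO IgG and 15 in WT anti-PD-1 over WT IgG, and 18 and 21 lower in KO anti-PD-1 than in KO IgG and WT anti-PD-1. With TMM factors 19 were higher in KO IgG, and 16 higher and 36 lower in WT anti-PD-1, over WT IgG. With 2 Ly49 UMIs 14 were lower in KO IgG than in WT IgG, and by the mean of the cells' CPM 51 were higher in WT anti-PD-1 than in WT IgG. Fewer genes reach the minimum after thinning and at 100 UMIs, and otherwise the cause was not tested.

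Values of single named genes under the alternatives were counted by rules that differed between comparisons. In class comparisons the same meant that direction and call were kept, and in library contrasts that the value lay within the counting interval. Genes that fell below the filter gave no value. By these rules 2418 were the same, 374 kept the direction and lost the call, 4 lay outside the interval and 2 reversed. Those were Gzma against Ly49-negative T cells without Klrb1c or Klre1 cells (-1.18, adjusted p = 0.022) and Xcl1 against NK cells after thinning (0.10, adjusted p = 0.70). The sums rest on 85 to 124 members per library, so genes of low level were often below the filter.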

Other observations

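Further gene groups differed between the members and the Ly49-negative T cells. Of 8 interferon-induced genes tested, 3 were lower in members and none higher by edgeR at an adjusted p under 0.05. Among all 6873 genes tested, 3.3% were lower and 3.1% higher at that threshold. The lower interferon-induced genes included Ifi27l2a (-1.64) and Isg15 (-0.84, adjusted p = 0.016). Among the members themselves, Isg15 was 3.28-fold higher in cells with an Ikzf2 UMI than in those without, in 4 of 4 libraries. Of 10 immediate-early and heat-shock genes, 3 were lower, Fosb by -1.05 (adjusted p = 0.046), Egr1 by -0.69 (adjusted p = 0.047) and the phosphatase gene Dusp1 by -0.49 (adjusted p = 0.0029). Hspa1a and Hspa1b differed by 0.22 and 0.07 and did not pass. Of 6 genes of CD4 T cells, 5 were lower, among them Cd40lg by -2.01 and Tnfsf8 by -0.82.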
